A study of Mus musculus with 16 samples.

Results

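Collagens other than type I were followed through the peak lists of chromatin immunoprecipitation with sequencing (ChIP-seq) made in MC3T3-E1, a clonal pre-osteoblast line from mouse calvaria. The genes were all protein-coding genes of the GENCODE vM1 annotation whose symbol has the form of a collagen chain, without Col1a1 and Col1a2, and there were 41 of them among 22238 genes. By the type of assembly that the chains form, 9 were fibrillar, 6 were basement membrane chains of type IV, and 26 were of other types. Differentiated cells were cultured in osteogenic medium, with ascorbic acid at 50 µg/mL and glycerol-2-phosphate at 10 mM, over 15 days, and undifferentiated cells were not. The cells behind all 14 lists came from passages 5 to 12 of the same line and were given ethanol vehicle for 3 h. There was 1 merged peak list in each state for each of 7 antibodies: the transcription factors RUNX2 and C/EBPβ, and the histone marks H4K5Ac, H3K9Ac, H3K4me1, H3K4me3 and H3K36me3. The biological replicates were already merged in the lists, so no difference between the states has a replicate check and no p-value is given.

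Collagens are trimeric proteins of the extracellular matrix, and each gene encodes 1 chain. Fibrillar chains of types II, III, V, XI, XXIV and XXVII build or nucleate the staggered fibrils in which type I is the bulk protein of bone, type IV forms the sheets of basement membranes, and FACIT chains (fibril-associated collagens with interrupted triple helices) decorate fibrils. RUNX2 is the runt-domain factor without which no bone forms, and it binds the words TGTGGT and TGCGGT. H3K4me3 marks active promoters, H4K5Ac and H3K9Ac mark active regulatory DNA, H3K4me1 marks enhancers and promoter flanks, and H3K36me3 is laid down over the bodies of transcribed genes.

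The RUNX2 peaks at the promoters of these genes are shown first, because they are the ones that lie where transcription starts. A peak was assigned to the gene with the nearest transcription start site (TSS) within 100 kb of its centre, and a promoter peak had its centre within 1 kb of a TSS of that gene. Differentiated cells had 3 promoter peaks and undifferentiated cells had 9. Of the 9, 3 overlapped a peak of differentiated cells and were called kept, and 6 had no partner there and were called lost. No promoter peak was found in differentiated cells alone. Each sequence is the whole peak of the deposited list, 5′ to 3′ on the plus strand of mm9, in lower case. RUNX words are in capitals, as TGTGGT or TGCGGT on the plus strand and as ACCACA or ACCGCA where the word is on the minus strand. The kept peaks, in undifferentiated coordinates, were these.
Col27a1 kept, chr4:62942852-62943052: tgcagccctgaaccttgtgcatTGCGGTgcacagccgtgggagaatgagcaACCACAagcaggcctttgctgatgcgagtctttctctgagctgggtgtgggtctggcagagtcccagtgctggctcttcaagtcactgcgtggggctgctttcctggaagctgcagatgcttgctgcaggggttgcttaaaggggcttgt
Col8a2 kept, chr4:125978142-125978342: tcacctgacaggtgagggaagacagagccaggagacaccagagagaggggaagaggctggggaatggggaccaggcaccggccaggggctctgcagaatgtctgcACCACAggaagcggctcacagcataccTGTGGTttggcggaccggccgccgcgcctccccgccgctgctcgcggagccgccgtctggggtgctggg
Col12a1 kept, chr9:79566459-79566659: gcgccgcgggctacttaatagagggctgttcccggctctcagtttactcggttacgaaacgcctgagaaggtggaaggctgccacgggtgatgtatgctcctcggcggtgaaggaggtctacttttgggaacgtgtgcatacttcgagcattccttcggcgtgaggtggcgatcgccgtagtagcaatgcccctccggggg

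The Col12a1 peak lay 19 bp from the nearest TSS in differentiated cells and 32 bp from it in undifferentiated cells. Col12a1 encodes the FACIT chain of type XII, which binds type I fibrils. The Col27a1 and Col8a2 peaks lay at internal annotated starts, 67.9 kb and 14.2 kb into genes for a fibrillar chain and for a network-forming chain. Both internal peaks hold 2 RUNX words each, and the Col12a1 peak at the gene's own start holds none. The 6 lost promoter peaks belonged to Col2a1, Col16a1, Col6a3 and Col6a5.
Col2a1 lost, at the first start, chr15:97835151-97835351: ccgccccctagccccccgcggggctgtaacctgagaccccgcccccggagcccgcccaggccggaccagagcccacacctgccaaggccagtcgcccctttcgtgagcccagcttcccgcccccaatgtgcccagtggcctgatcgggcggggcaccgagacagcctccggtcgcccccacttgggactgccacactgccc
Col2a1 lost, at an internal start, chr15:97832456-97832656: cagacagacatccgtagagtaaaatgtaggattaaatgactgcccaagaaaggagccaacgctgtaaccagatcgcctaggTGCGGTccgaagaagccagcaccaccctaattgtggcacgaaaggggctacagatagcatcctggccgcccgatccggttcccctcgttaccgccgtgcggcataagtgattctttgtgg
Col16a1 lost, at the first start, chr4:129725004-129725204: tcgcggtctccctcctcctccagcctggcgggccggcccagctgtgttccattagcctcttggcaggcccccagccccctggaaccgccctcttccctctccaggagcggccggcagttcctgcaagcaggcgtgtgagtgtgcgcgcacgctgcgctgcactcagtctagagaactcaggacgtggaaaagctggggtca
Col16a1 lost, upstream, chr4:129724655-129724855: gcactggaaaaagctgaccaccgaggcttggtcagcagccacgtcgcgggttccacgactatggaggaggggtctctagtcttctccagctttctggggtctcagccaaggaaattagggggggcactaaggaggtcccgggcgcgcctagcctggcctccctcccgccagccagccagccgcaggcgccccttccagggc
Col6a3 lost, at an internal start, chr1:92675498-92675698: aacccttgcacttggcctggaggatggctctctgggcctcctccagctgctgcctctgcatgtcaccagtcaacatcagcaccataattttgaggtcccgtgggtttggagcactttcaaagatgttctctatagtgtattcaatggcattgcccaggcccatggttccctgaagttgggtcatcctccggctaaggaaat
Col6a5 lost, at the first start, chr9:105863069-105863269: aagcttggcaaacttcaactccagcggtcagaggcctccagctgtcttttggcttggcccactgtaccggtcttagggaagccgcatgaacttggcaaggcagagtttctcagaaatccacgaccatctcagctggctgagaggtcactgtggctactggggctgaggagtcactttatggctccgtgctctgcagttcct

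Col2a1 encodes the main fibrillar chain of cartilage, Col16a1 a FACIT chain, and Col6a3 and Col6a5 chains of the beaded filaments of type VI. A RUNX word stands in 1 of these 6 lost peaks, the internal one of Col2a1, against 2 of the 3 kept peaks. In the whole undifferentiated list, 36.3% of the 2357 lost promoter peaks and 59.4% of the 932 kept ones held a word. Away from promoters a word stood in 28 of 38 lost collagen peaks (73.7%) and in 25 of 37 kept ones (67.6%), against 64.3% and 74.5% in the whole list. Peaks found in differentiated cells alone are called gained, and the ones shown here are the gained peak of Col12a1, 55206 bp from its nearest start, and that of Col11a1, 39.4 kb upstream. The second was added after its values were seen, as the RUNX2 peak of a gene whose marks differed between the states.
Col12a1 gained, chr9:79405471-79405671: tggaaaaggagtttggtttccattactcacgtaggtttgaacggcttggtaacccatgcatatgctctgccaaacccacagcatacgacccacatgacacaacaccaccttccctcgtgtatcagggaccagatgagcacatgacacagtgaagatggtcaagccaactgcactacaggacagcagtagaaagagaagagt
Col11a1 gained, chr3:113693930-113694130: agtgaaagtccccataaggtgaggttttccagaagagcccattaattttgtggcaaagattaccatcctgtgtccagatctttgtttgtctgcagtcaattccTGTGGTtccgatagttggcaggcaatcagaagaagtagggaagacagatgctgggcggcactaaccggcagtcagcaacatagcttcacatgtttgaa

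The Col11a1 peak holds 1 word, 3 bp from its centre, and the Col12a1 peak holds none. Over all RUNX2 peaks of these genes, 37 of 52 (71.2%) held a word in differentiated cells and 56 of 84 (66.7%) in undifferentiated cells. The shares in the whole RUNX2 lists were 71.1% and 61.7%. Windows of the same length, shifted 1 kb toward lower coordinates, held a word for 7.69% and 11.9% of the collagen peaks. For all peaks of the lists these windows held one in 16.9% and 16.8%. A match is a description of the letters and not a measured contact. In C/EBPβ peaks of the same genes the C/EBP word TTGCNNAA stood in 40.2% of the differentiated and 41.0% of the undifferentiated peaks, close to the 44.8% and 41.1% of the whole lists.

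RUNX2 lay at fewer of these genes after differentiation, in a list that was itself shorter. A RUNX2 peak was assigned to 19 of the 41 genes in differentiated cells (46.3%, exact 95% interval 30.7 to 62.6) and to 27 in undifferentiated cells (65.9%, 49.4 to 79.9). The background over all 22238 genes was 15.0% in differentiated cells and 27.3% in undifferentiated cells. These intervals cover counting error only, and the read depth behind the lists is unknown because peak lists carry no read counts. The collagen genes are long, with a median of 114 kb against 15.5 kb for all genes, and a count of peaks per gene takes no account of length. Per megabase of DNA nearest to their starts, they held 7.83 RUNX2 peaks in differentiated cells and 12.6 in undifferentiated cells, against 3.20 and 6.61 for all genes.

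Counted gene by gene, 20 collagen genes had fewer RUNX2 peaks in differentiated cells, where the background was 19.8% of genes, and 5 had more, where it was 2.92%. Only a gene with an undifferentiated peak can have fewer. The 20 were among 27 such collagen genes, against 4405 among 6070 such genes of all 22238. A further 4 had the same number above 0, and 12 had none in either state. The peaks numbered 52 in differentiated cells and 84 in undifferentiated cells, a ratio of 0.62, against 0.48 for the peaks of all genes. Of the 84, 40 were kept and 44 were lost, and 11 of the 52 were gained. The share kept was 47.6% (36.6 to 58.8), against 36.4% of all RUNX2 peaks, and the gained share of the differentiated peaks was 21.2%, against 26.2%. Most peaks were far from a start: the median distance to the nearest TSS was 18.9 kb in differentiated cells and 16.7 kb in undifferentiated cells, against 12.9 kb and 8.61 kb for the whole lists. Promoter peaks made up 5.77% and 10.7%, against 18.6% and 26% of the whole lists. In differentiated cells 22 of the 52 lay in introns of their gene, 18 between genes and 8 in another gene, and in undifferentiated cells 41 of the 84 lay in introns, 25 between genes and 9 in another gene.

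**Figure D1:**
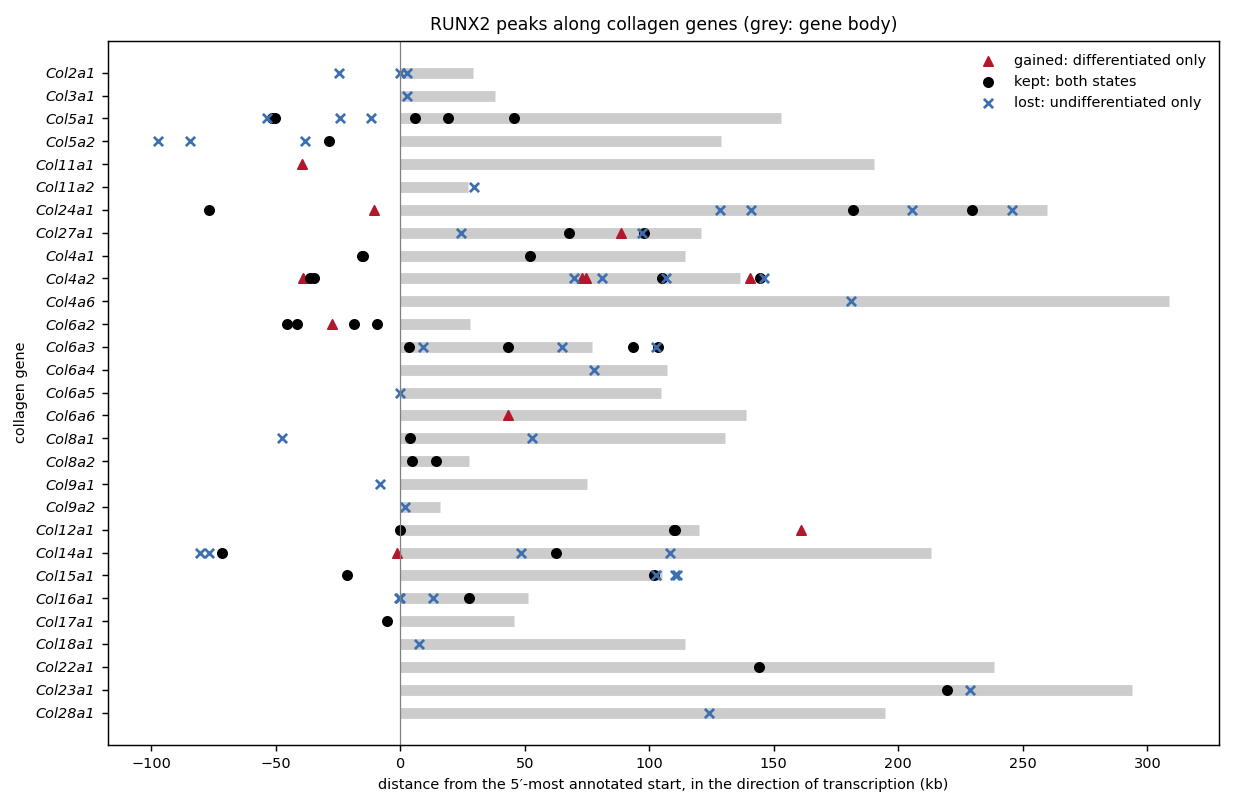
RUNX2 peaks along the 29 collagen genes that had one in either state, as distance in kb from the 5′-most annotated start in the direction of transcription. Grey bars are gene bodies, red triangles are the 11 gained peaks, black circles the 40 kept peaks at their undifferentiated position, and blue crosses the 44 lost peaks. Peaks spread over the bodies and the upstream DNA, and the gained ones sit at Col4a2 (4 peaks) and at 7 genes with 1 each.

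The fibrillar genes carried 14 RUNX2 peaks in differentiated cells and 28 in undifferentiated cells, with 11 kept, 17 lost and 3 gained. The whole list held 6272 and 12674. The share kept was 39.3% (21.5 to 59.4), near the 36.4% of all RUNX2 peaks. Col5a1 (ENSMUSG00000026837.9, chr2:27741945-27895034), which encodes the main type V chain that nucleates type I fibrils, had 5 peaks in differentiated cells and 8 in undifferentiated cells. All 5 were kept: 3 lie in the gene, 5.94, 19.2 and 45.7 kb from its start, and 2 lie about 50 kb upstream. The 3 lost Col5a1 peaks lay 53.4, 24.3 and 11.6 kb upstream, so no peak within the gene was lost. Col5a2, its partner chain, had 1 peak in differentiated cells, 28.4 kb upstream, and 4 in undifferentiated cells. Col3a1, the type III chain found with type I in soft tissue, lost its only peak, 2.58 kb into the gene.

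Col24a1 (ENSMUSG00000028197.4, chr3:144955436-145214975), a fibrillar chain known from developing bone, had 4 peaks in differentiated cells and 7 in undifferentiated cells. Within the gene the states shared 2 peaks and 4 were lost, 76.8 kb upstream 1 was shared, and 10.5 kb upstream 1 was gained. With only the 5′-most start used for assignment, Col24a1 had 1 peak more in differentiated cells instead of 3 fewer. Col27a1, a fibrillar chain of cartilage, had 3 peaks in differentiated cells, 1 of them gained, and 4 in undifferentiated cells. The cartilage chains Col2a1 and Col11a2 had 0 peaks in differentiated cells against 3 and 1 in undifferentiated cells. Col11a1, another cartilage and fibril-core chain, had 1 gained peak and none in undifferentiated cells, and Col5a3 had none in either.

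Among the basement membrane genes the count did not drop: it was 12 in both states, with 7 undifferentiated peaks kept, 5 lost and 4 gained. The share kept was 58.3%, with a wide interval of 27.7 to 84.8. All 12 differentiated peaks and 11 undifferentiated ones belonged to Col4a1 (ENSMUSG00000031502.9, chr8:11198423-11312826, minus strand) and Col4a2 (ENSMUSG00000031503.7, chr8:11312805-11449287, plus strand). They encode the chains of the most widespread type IV molecule from a shared, head-to-head promoter. Col4a2 had 8 peaks in each state, with 4 kept, 4 lost and 4 gained. In differentiated cells 12 genes of the whole set had 8 or more RUNX2 peaks, Col4a2 among them, and 77 did in undifferentiated cells. Col4a1 had 4 peaks in differentiated cells and 3 in undifferentiated cells, and 3 of its 4 form a cluster that covers 2 undifferentiated peaks. That cluster lies inside Col4a2, 14.8 to 15.5 kb from the shared start, and peaks inside Col4a1, 34.4 to 39.2 kb from it, were nearest to a Col4a2 start, so the division between the pair follows from distance alone. Col4a6 had 0 peaks in differentiated cells and 1 in undifferentiated cells, and Col4a3, Col4a4 and Col4a5 had none in either.

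The 26 genes of other types carried 26 RUNX2 peaks in differentiated cells and 44 in undifferentiated cells, with 22 kept, 22 lost and 4 gained. The share kept was 50% (34.6 to 65.4), and the intervals of all classes overlap. Among the type VI chains, which form the beaded filaments around cells, Col6a2 had 5 and 4 peaks in differentiated and undifferentiated cells. The 4 undifferentiated peaks, 9.23 to 45.5 kb upstream of Col6a2, were kept, and the fifth peak, 27.6 kb upstream, was gained among them. Col6a3 had 4 peaks in differentiated cells and 7 in undifferentiated cells, and Col6a1 had none in either. The newer type VI chains showed single peaks: Col6a4 and Col6a5 had 0 in differentiated and 1 in undifferentiated cells, and Col6a6 had 1 gained peak.

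Among the FACIT chains, Col12a1 had 4 peaks in differentiated cells and 3 in undifferentiated cells, and all 3 were kept, while with a limit of 500 kb it had 2 fewer in differentiated cells. Col14a1, a fibril-binding chain related to Col12a1, had 3 peaks in differentiated cells and 6 in undifferentiated cells. Its gained peak lay 1.28 kb upstream of the start, and with peaks within 20 kb of a start counted instead, Col14a1 had 1 more in differentiated cells. Col16a1 had 1 and 4 peaks in differentiated and undifferentiated cells, Col22a1 had 1 in each, and Col9a1 and Col9a2 had 0 against 1. Of the network-forming chains of type VIII, Col8a1 had 1 peak in differentiated cells and 3 in undifferentiated cells, and Col8a2 had 2 in each, both kept. Of the multiplexins, whose chains sit at basement membrane zones, Col15a1 had 2 peaks against 5, and Col18a1 had 0 against 1. The transmembrane chains Col17a1 and Col23a1 had 1 peak against 1 and 1 against 2, and Col28a1 had 0 against 1.

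**Figure D2:**
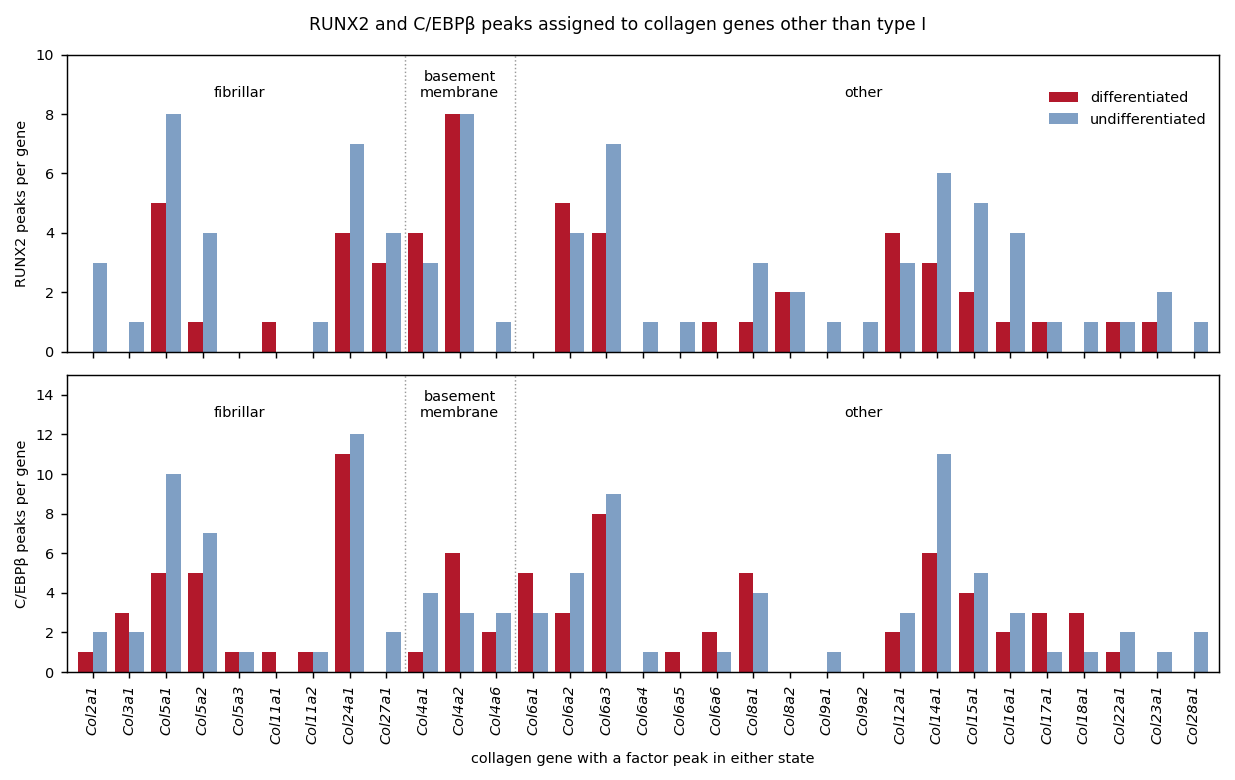
RUNX2 peaks (top) and C/EBPβ peaks (bottom) per gene for the 31 collagen genes with a peak of either factor in either state, with differentiated cells in red left of undifferentiated cells in blue and the 3 classes separated by dotted lines. RUNX2 bars are lower in differentiated cells for 20 genes and higher for 5, and Col24a1 has the tallest C/EBPβ bars, 11 and 12.

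C/EBPβ, a leucine zipper factor active in mesenchymal cells, had 82 peaks at the same genes in differentiated cells and 100 in undifferentiated cells. It was assigned to 24 of 41 genes in differentiated cells (58.5%, 42.1 to 73.7) and to 27 in undifferentiated cells (65.9%, 49.4 to 79.9), over a background of 21.8% and 27.7%. Of its peaks 50 were kept, 50 lost and 32 gained, and the kept share of 50.0% (39.8 to 60.2) stood beside 43.1% of the whole list. There were 18 genes with fewer peaks in differentiated cells (background 16.1%) and 9 with more (background 6.15%). The 18 were among the 27 with an undifferentiated peak, against 3582 among 6165 for all genes. Per megabase the genes held 12.3 and 15.1 C/EBPβ peaks in differentiated and undifferentiated cells, against 5.39 and 7.74 for all genes.

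Col24a1 had 11 C/EBPβ peaks in differentiated cells and 12 in undifferentiated cells, the most of any of the 41 genes in either state, of which 6 were gained and 7 lost, but within 20 kb of a start it had 2 more in differentiated cells. Col6a3 had 8 against 9, Col14a1 6 against 11 and Col5a1 5 against 10, and all Col5a1 peaks of differentiated cells were kept ones. Col4a2 had 6 against 3, while its neighbour Col4a1 had 1 against 4, and under assignment by gene body plus 10 kb or by the 5′-most start Col4a1 had 1 more in differentiated cells. RUNX2 and C/EBPβ overlapped at 10 of the 52 RUNX2 peaks in differentiated cells (19.2%) and at 27 of 84 in undifferentiated cells (32.1%), near the 22.2% and 31.1% of the whole lists. No peak of either factor was assigned in either state to 10 genes: Col4a3, Col4a4, Col4a5, Col7a1, Col9a3, Col10a1, Col13a1, Col19a1, Col20a1 and Col25a1. This count was not made over all genes, of which 27.3% had a RUNX2 and 27.7% a C/EBPβ peak in undifferentiated cells.

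The RUNX2 peaks of these genes lay almost wholly in H3K4me1 and H4K5Ac regions, as did those of the whole lists. H3K4me1 covered 52 of 52 peaks in differentiated cells and 84 of 84 in undifferentiated cells, and H4K5Ac covered 98.1% and 98.8%. Of the whole RUNX2 lists, H3K4me1 covered 98.4% and 96.6%, and H4K5Ac 94.8% and 97.1%. H3K9Ac covered 84.6% of the peaks in differentiated cells and 38.1% in undifferentiated cells, against 75% and 55% of the whole lists. The H3K9Ac list was the longer one in differentiated cells, with 23671 regions against 14975. With only as many top-scoring regions as the shorter list holds, the differentiated share was 67.3%. Of the 44 lost peaks, 56.8% were in H3K9Ac of differentiated cells and 29.5% in that of undifferentiated cells, against 73.6% and 54.7% of all 8058 lost RUNX2 peaks. With equal list lengths these were 40.9% and 29.5% for the collagen peaks, against 58.7% and 54.7% for all lost peaks. Promoter peaks were 6 of the 44 and 2357 of the 8058. The H3K9Ac shares were not split by location, and the part of promoter peaks in them was not tested.

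Over the gene bodies, H3K36me3 covered some genes of the family nearly end to end, others almost not at all, and the rest in part or in 1 state. A gene was called covered when H3K36me3 regions spanned 50% or more of its annotated body. In differentiated cells 17 of the 41 genes were covered (41.5%, 26.3 to 57.9) and in undifferentiated cells 14 were (34.1%, 20.1 to 50.6), over a background of 40.8% and 40.7% of all genes. By class, 7 of 9 fibrillar genes were covered in differentiated cells and 6 in undifferentiated cells, 2 of 6 basement membrane genes against 0, and 8 of 26 other genes against 8. The median cover was 89.2% and 83.9% for the fibrillar genes, 4.16% and 18.1% for the basement membrane genes and 0.80% and 0.89% for the others, against 0.439% and 1.26% for all genes. Below 10% in both states were 20 of the 41 genes (48.8%), near the background of 51.0%.

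**Figure D3:**
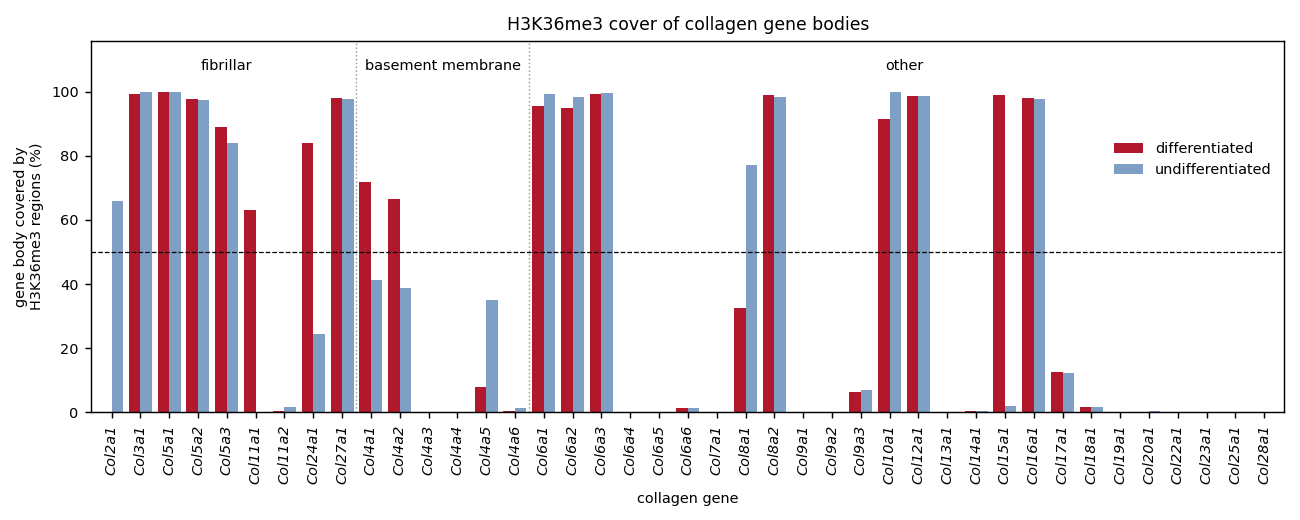
Percentage of each gene body covered by H3K36me3 regions for all 41 collagen genes, with differentiated cells in red left of undifferentiated cells in blue, classes separated by dotted lines and the 50% limit dashed. Most genes are near 100 or near 0 in both states, and Col15a1, Col11a1, Col24a1, Col4a1 and Col4a2 have taller red bars while Col2a1, Col8a1 and Col4a5 have taller blue ones.

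Of the 41 genes, 12 were covered in both states, against 8675 of all 22238 genes. A group of 10 genes was covered nearly end to end in both states, and its chains were of several kinds. The fibrillar ones were Col5a1 with 100% in both states, Col3a1 with 99.3% in differentiated and 100% in undifferentiated cells, Col27a1 and Col5a2. The type VI ones were Col6a3 with 99.5% and 99.7%, Col6a1, and Col6a2, the least covered of the 10 in differentiated cells with 94.9% against 98.4%. The FACIT chains Col12a1, with 98.7% and 98.8%, and Col16a1 were also among them, as was the network-forming Col8a2 with 99.1% and 98.5%. Other chains of the same kinds had almost no cover: Col6a4 and Col6a5 had 0% in both states, Col6a6 had 1.35% and 1.31%, and Col14a1 had 0.25% and 0.47%. The Col5a1 region, 158 kb wide in differentiated cells and 160 kb wide in undifferentiated cells, had rank 3 and rank 6 by the authors' score within its list, and that of Col12a1 had rank 6 and rank 30. Col5a3, a further type V chain, was covered at 89.2% and 83.9%. Col10a1, the chain of hypertrophic cartilage, had 91.4% and 100%, but its body lies inside Nt5dc1, whose H3K36me3 region spans both, so this cover cannot be told apart from that of Nt5dc1.

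Cover was higher in differentiated cells by 10 percentage points or more at 5 genes, where the background was 5.13% of genes, and lower at 3, where it was 4.71%. Col15a1 (ENSMUSG00000028339.11, chr4:47221033-47326039) had 99.1% in differentiated cells and 1.90% in undifferentiated cells, as 1 region of 105.9 kb against 1 of 2.00 kb. Col11a1 (ENSMUSG00000027966.10, chr3:113733458-113923636) had 63.3% in 6 regions against 0% and no region. Col24a1 had 84.0% against 24.5%, as a single region of 218 kb against 7 regions of 1.84 to 13.7 kb.
The basement membrane pair differed together, with 71.7% against 41.3% for Col4a1 and 66.6% against 38.9% for Col4a2. With the bodies cut into 10 equal parts, the last 4 parts of both genes were fully covered in differentiated cells and were 63.9% to 100% covered in undifferentiated cells. Over the 50% of the body next to the 3′ end Col4a1 was 8.96 points higher, under the 10-point limit, and Col4a2 was 17.6 points higher.

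Lower in differentiated cells were Col2a1 (ENSMUSG00000022483.9, chr15:97806033-97835155), with 0% against 66.1%, Col8a1 (ENSMUSG00000068196.4, chr16:57624371-57754850), with 32.5% against 77.3%, and Col4a5, an X-linked chain of kidney basement membranes, with 7.90% against 34.9%. The Col2a1 cover in undifferentiated cells came from 3 regions of 5.09 to 7.22 kb, scored between the 34.0th and 42.9th percentile of the list. Col8a1 had 3 regions of 10.7 to 19.5 kb in differentiated cells and 9 regions of 1.37 to 43.3 kb in undifferentiated cells. Col4a5 had 5 regions of 1.36 to 5.58 kb against 14 of 1.31 to 14.2 kb, where the median width of the lists was 11.1 kb and 10.5 kb. None of the other 33 genes differed by 10 points, and the nearest were Col10a1 at -8.60 points and Col5a3 at 5.27 points.

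**Figure D4:**
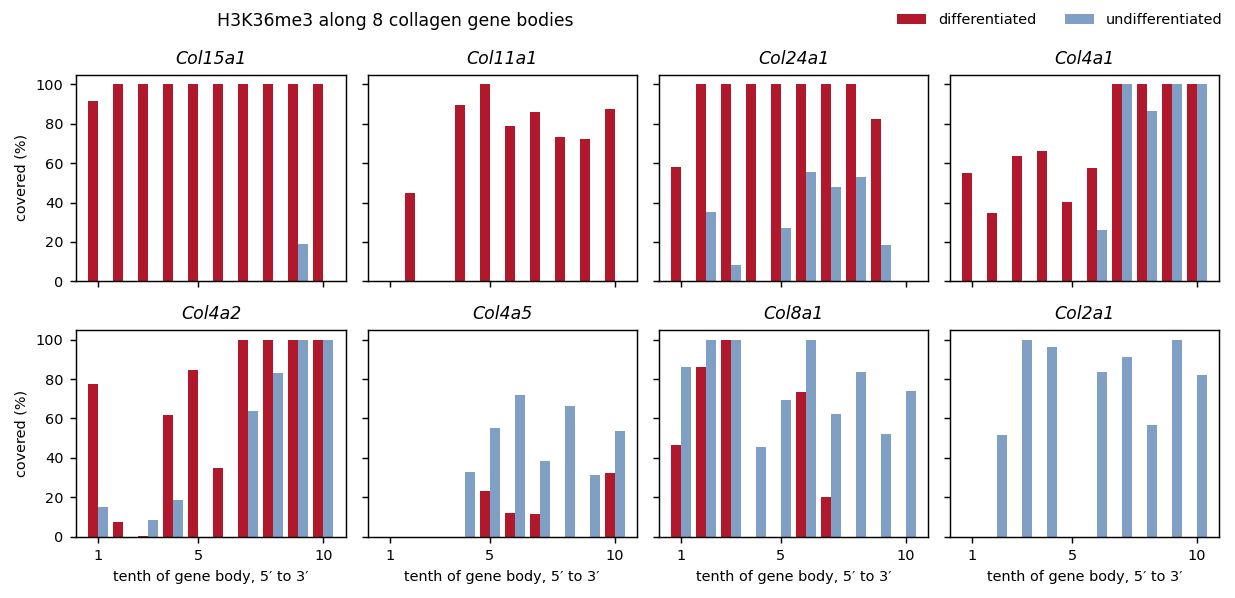
H3K36me3 cover in 10 equal parts of the gene body, from 5′ to 3′, for the 8 collagen genes past the 10-point limit, with differentiated cells in red left of undifferentiated cells in blue. Col15a1 and Col24a1 are filled over most of their length in differentiated cells, Col4a1 and Col4a2 differ most in the 5′ parts, and Col2a1 has no cover in differentiated cells.

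At the promoters, the presence of an H3K4me3 region differed between the states at 2 genes, 1 of them in the opposite direction to its body cover. Only presence was compared, and widths also differed at genes marked in both states. The region was wider in undifferentiated cells at Col3a1, Col5a1, Col5a2, Col6a1, Col6a2, Col6a3, Col12a1 and Col16a1. It was wider in differentiated cells at Col8a2, at Col4a1 and Col4a2, which share it, and by little at Col27a1. The median width of the whole lists was 2417 bp in differentiated and 2865.5 bp in undifferentiated cells. The promoter region was 5.14 kb wide in differentiated and 21.8 kb in undifferentiated cells at Col5a1, and 3.11 against 1.56 kb at Col8a2. H3K4me3 lay within 1 kb of a TSS of 14 genes in differentiated cells and 12 in undifferentiated cells, over a background of 40.1% and 34.9%. The 2 genes with H3K4me3 in differentiated cells alone were Col8a1 and Col11a1 (background 6.60%), and no gene had it in undifferentiated cells alone (background 1.45%). For Col11a1 the promoter and body marks both appeared in the differentiated lists, together with H3K9Ac and H3K4me1. For Col8a1 the promoter mark was present in differentiated cells alone while body cover was lower there. With only the top 75% of regions by score, or equal numbers of regions, Col8a1 no longer had H3K4me3 in differentiated cells alone.

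Col15a1 and Col24a1 had no H3K4me3 within 1 kb of a TSS in either state despite their cover in differentiated cells, and Col5a3 and Col10a1 had none either. Of the 17 covered genes, 13 had H3K4me3 at a promoter in differentiated cells, and of the 14 covered in undifferentiated cells, 10 did. These are 76.5% and 71.4%, against 83.8% and 75.2% of all covered genes. All 9 fibrillar promoters carried H3K9Ac and H3K4me1 in differentiated cells, against 6 and 8 in undifferentiated cells, and all 9 carried H4K5Ac in both states. Over the 41 genes H3K9Ac was at 25 promoters against 20 (background 52.5% and 49.2%), H4K5Ac at 29 against 31 (54.3% and 55.5%) and H3K4me1 at 30 in both states (59.0% and 57.1%). H3K9Ac was in differentiated cells alone at Col5a3, Col11a1, Col11a2, Col14a1 and Col18a1 (background 3.39%) and in undifferentiated cells alone at none (0.157%).

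The other marks were in differentiated cells alone at few genes: H4K5Ac at none (background 1.18%), against 2 in undifferentiated cells alone (2.39%), Col6a4 and Col9a1. H3K4me1 was in differentiated cells alone at Col9a3 and Col11a1 (3.23%) and in undifferentiated cells alone at Col6a4 and Col6a6 (1.40%). None of the 4 marks was found in either state at 8 genes: Col4a3, Col4a4, Col10a1, Col13a1, Col19a1, Col20a1, Col22a1 and Col25a1. This count was not made over all genes. H3K4me1, the most frequent of the 4 marks, was at 59.0% of them in differentiated and 57.1% in undifferentiated cells. Col22a1 was the only one of these 8 with a RUNX2 peak, an intronic one kept in both states. The 3 head-to-head type IV pairs differed from each other: Col4a1 and Col4a2 with all 4 marks, Col4a5 and Col4a6 with all but H3K4me3, and Col4a3 and Col4a4 with none.

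**Figure D5:**
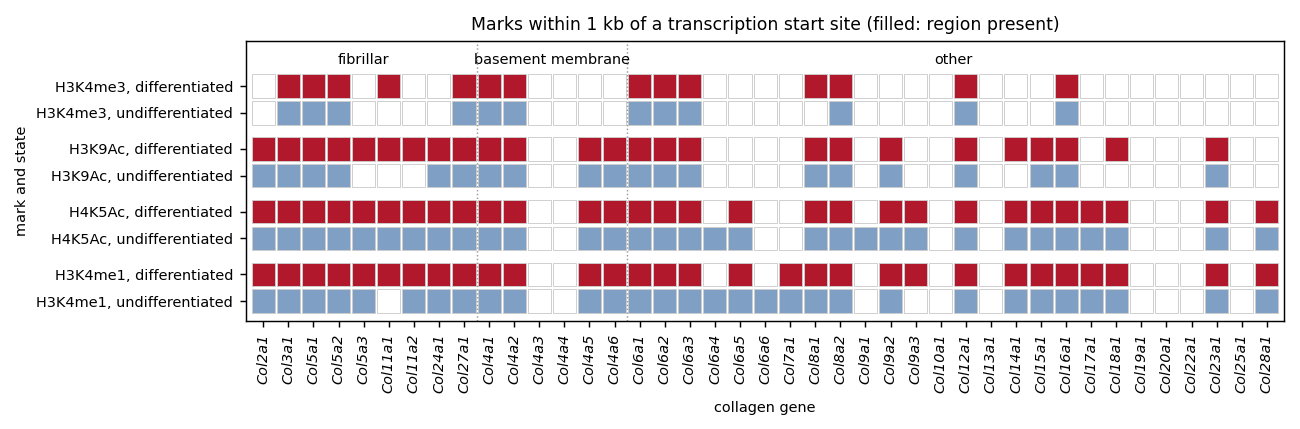
Presence of 4 marks within 1 kb of a transcription start of each of the 41 collagen genes; each mark has a row for differentiated cells in red above a row for undifferentiated cells in blue, and an empty tile means no region. H3K4me3 is present at 14 and 12 genes, and the rows of a mark differ at 2 to 5 genes.

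In differentiated cells most RUNX2 peaks of the family lay at covered genes. The 5 genes covered in differentiated cells alone held 19 of the 52 differentiated peaks (36.5%) and 23 of the 84 undifferentiated peaks (27.4%). Of the 19, 12 were at Col4a1 and Col4a2. Over all genes, those covered in differentiated cells alone held 3.91% of the assigned peaks in differentiated cells and 2.89% in undifferentiated cells. In differentiated cells 13 of 17 covered collagen genes had a RUNX2 peak (76.5%) and 6 of 24 uncovered ones did (25.0%), and 44 of the 52 peaks were at covered genes. In undifferentiated cells the numbers were 11 of 14 (78.6%) and 16 of 27 (59.3%), with 43 of the 84 peaks at covered genes. On the 14 genes covered in undifferentiated cells the share was alike in both states, with 26 of the 52 differentiated peaks (50%) and 43 of the 84 undifferentiated peaks (51.2%). On the 17 genes covered in differentiated cells it was 84.6% of the differentiated and 71.4% of the undifferentiated peaks. Of the peaks assigned to all genes, 65.3% lay at covered genes in differentiated cells and 65.7% in undifferentiated cells. Over all genes, 23.3% of covered and 9.28% of uncovered genes had a RUNX2 peak in differentiated cells, and 43.6% and 16.2% in undifferentiated cells. Among the 5 genes with higher cover in differentiated cells, RUNX2 peaks were 3 fewer at Col15a1 and at Col24a1, 1 more at Col4a1 and at Col11a1, and equal at Col4a2. Col2a1 lost RUNX2 peaks, and its H3K36me3 regions were in undifferentiated cells alone.

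Genes that modify, process and bind collagen gave a point of reference, from a list of 29 enzymes and chaperones, 28 of which were in the annotation. Of the 28, 8 had a RUNX2 peak in differentiated cells (background 15.0%) and 16 in undifferentiated cells (27.3%), with 14 peaks against 28. Fewer peaks in differentiated cells were found at 11 (background 19.8%), all among the 16 with an undifferentiated peak, and more at 1 (2.92%). H3K36me3 covered 21 of them in differentiated cells (background 40.8%) and 20 in undifferentiated cells (40.7%). These included the prolyl and lysyl hydroxylases P4ha1 (95.1% and 95.9%) and Plod2 (95.1% and 94.6%) and the collagen chaperone Serpinh1 (100% and 99.2%). Adamts2, the protease that removes the N-terminal propeptide of fibrillar collagens, was the only one higher by 10 points or more (background 5.13%), with 86.0% against 35.6%. Leprel1 and Adamts14 were lower by 10 points or more (background 4.71%), with 28.8% against 44.5% and 14.2% against 28.6%. Of 7 collagen receptors, 3 against 4 had a RUNX2 peak (background 15.0% and 27.3%) and 5 were covered in both states (background 8675 of 22238 genes). Itga11, an integrin subunit for fibrillar collagen, had 4 peaks against 8. The receptor gene Itga1 was lower in cover by 10 points or more, with 5.83% against 17.5%. The type I genes themselves had 13 RUNX2 peaks in differentiated cells and 19 in undifferentiated cells, which is 51.6 and 75.4 per megabase, and both were covered in both states.

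The cell type was checked by H3K36me3 and H3K4me3 at marker genes. Of 9 osteoblast markers, a list that includes Col1a1 and Col1a2, 8 were covered in differentiated cells and 7 in undifferentiated cells, and 6 carried H3K4me3 in each state. Ibsp, a late mineralisation gene, had 86.5% against 0% cover, with H3K4me3 in neither state. Alpl, the alkaline phosphatase of osteoblasts, had no cover and no H3K4me3 in either state. Of the others, Spp1 carried H3K4me3 in differentiated cells alone, and Sp7, an osteoblast transcription factor, in undifferentiated cells alone. Of 7 chondrocyte markers, a list that includes Col2a1 and Col9a1, 1 was covered in differentiated cells and 2 in undifferentiated cells: Sox9 with 80.2% against 93.5%, and Col2a1. Sox9 alone of the 7 carried H3K4me3, in both states. Comp had 12.2% against 0% cover, and Acan, Hapln1, Matn3 and Col9a1 had no cover in either state. The part of chondrocyte-like cells in the Col2a1 values was not tested. None of the adipocyte, muscle, endothelial or epithelial markers, 5 in each list, was covered or carried H3K4me3 in either state. Of 4 haematopoietic markers found in the annotation, Cd68 was covered in both states and none carried H3K4me3.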

How the data were processed

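The 14 deposited lists hold merged peaks of biological replicates, per the labels. Alignment was to mm9 with Bowtie and peak calling was with HOMER, per the submitters' processing notes, with no version or threshold stated there. The deposited score is the authors' own value per region. For both transcription factors it is always 0, so it ranked mark regions only, within a list. Lists held 6272 and 12674 RUNX2 peaks and 10847 and 15622 C/EBPβ peaks (differentiated and undifferentiated cells). A difference in depth or enrichment between immunoprecipitations would change list lengths and cannot be told apart from one in binding. The 2 input samples were not used here. Per the labels, the differentiated input came from cells given 100 nM 1,25(OH)2D3, the active form of vitamin D, and not vehicle. Whether peaks were called against it is not given in the sources used here.

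NCBIM37 (mm9) and GENCODE vM1 were used, with 70021 TSSs, in Python 3.11.15, NumPy 2.4.6, pandas 2.3.3 and SciPy 1.17.1. Kept peaks overlap by at least 1 bp. Intervals are exact Clopper-Pearson, and genes and peaks are not replicates. Motifs were searched on both strands. Assignment to the nearest TSS, overlap, cover, counts by gene body and by distance, and the DNA nearest to each start were tested on simulated data. The other steps, such as the motif search and the promoter calls, were not. The genes, their classes and the marker and pathway lists were chosen with earlier results of these data known. Genes named were the fibrillar and basement membrane genes, others with a RUNX2 peak or a promoter H3K4me3 difference, and the 10 largest H3K36me3 differences and 5 highest covers. The differentiated H3K36me3 list was placed by its title, because its treatment label is garbled. The protocol writes H3K5Ac where the antibody label reads H4K5Ac. Alternatives covered peak assignment, overlap, promoter width, score, cover limits and motif window.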

Additional observations from a re-analysis of the deposited data

How the results depend on the processing

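No paired analysis was possible because each antibody and state has 1 merged list, and no replicate could be left out. Of 602 recomputed values, 473 stayed within the limits set, 118 moved past them without a change of sign, and 11 changed sign. The 473 include single-gene peak differences with chromosome X left out, which cannot change for genes on other chromosomes. Counting RUNX2 peaks within 20 kb of a start gave 33 peaks in differentiated and 55 in undifferentiated cells, with 3 genes having more, and C/EBPβ gave 47 and 47. With only the 5′-most start, there were 54 undifferentiated RUNX2 peaks, and 13 genes had fewer RUNX2 and 10 fewer C/EBPβ peaks in differentiated cells. By gene body plus 10 kb, 30 C/EBPβ peaks were lost and 21 gained. With Col15a1 and Col18a1 put among the basement membrane genes, 5 of them had a RUNX2 peak in undifferentiated cells. Within 50 bp of the peak centre a RUNX word stood in 50.0% of differentiated and 47.6% of undifferentiated RUNX2 peaks. H3K9Ac covered 69.2% of differentiated RUNX2 peaks with the top 75% of regions and 67.3% with equal list lengths, and 46.3% of C/EBPβ peaks with equal list lengths. These equal lengths at peaks, the count without Col10a1 and the joined count of Col4a1 and Col4a2 were added after seeing the data.

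The sign of the differentiated minus undifferentiated peak count changed for RUNX2 at Col14a1 (1, within 20 kb), Col12a1 (-2, within 500 kb) and Col24a1 (1, 5′-most start). For C/EBPβ it changed at Col5a2 and Col6a2 (1 each) and Col24a1 (2) within 20 kb, at Col4a1 (1) and Col5a2 (2) by gene body, at Col12a1 (2) within 500 kb, at Col4a1 (1) by the 5′-most start and at Col6a3 (1) with peaks within 1 kb joined. The causes were not tested. Unknown depth limits every count, since a site under the threshold is missing from a list.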

Other observations

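H3K9Ac regions covered more of the gene body in differentiated cells at 26 of the 41 genes, less at 3, and had none in either state at 12. Over all genes the cover was higher at 44.6% and lower at 8.62%. At the genes with higher H3K36me3 in differentiated cells, H3K9Ac covered 17.1% of the Col15a1 body in differentiated cells and 0.58% in undifferentiated cells, 16.6% against 1.90% for Col24a1, 15.2% against 2.43% for Col4a2, and 12.2% against 3.07% for Col4a1. Col11a1 had 2.29% against 0%. H3K9Ac cover was also higher in differentiated cells at 19 of the 33 genes whose H3K36me3 differed by less than 10 points (57.6%). Of all genes within that limit, it was higher at 41.6%. Among the 19 were Col5a2 with 14.7% against 5.00%, Col6a3 with 19.0% against 9.91% and Col12a1 with 16.9% against 8.24%. Col8a1, whose H3K36me3 was lower in differentiated cells, had 7.70% against 5.68%. Col2a1, whose H3K36me3 was in undifferentiated cells alone, had 27.2% against 12.2%. The whole H3K9Ac list covered 86.5 Mb in differentiated cells and 52.6 Mb in undifferentiated cells, and its part in these values was not tested. Col2a1 had H3K9Ac at its promoter in both states without H3K4me3 there in either.

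The X-linked pair Col4a5 and Col4a6 had no RUNX2 peak in differentiated cells, and Col4a6 had 2 C/EBPβ peaks in differentiated cells against 3 in undifferentiated cells. Col6a1, next to Col6a2, had no RUNX2 peak but 5 C/EBPβ peaks against 3. Col18a1, the multiplexin whose cover was 1.7% in differentiated and 1.6% in undifferentiated cells, had 3 C/EBPβ peaks against 1, and Col17a1, a hemidesmosome chain of epithelia, had 3 against 1 with no H3K4me3 at its promoter in either state.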
